A study of Mus musculus with 10 samples.

Results

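The neuronal immediate early genes described here are Fos, Fosb, Junb, Arc, Npas4, Egr1, Egr2, Egr3, Egr4 and Nr4a1, taken by name from a table of UMI counts (counts of single captured RNA molecules) of single brain nuclei. They are 10 of the 23589 genes in the table, and all 10 were detected, with 10869 UMIs between them. The nuclei came from archived frozen brain tissue of C57BL/6 mice and were sequenced by DroNc-seq, a method that captures single nuclei in droplets. The hippocampus and the cortex were microdissected, the latter as prefrontal cortex per the protocol, and the design text speaks of tissue from 4 mice in 2 regions. The labels give no age, sex or treatment and name no stimulation. A unit below is a title number within a region, with libraries 0a and 0b summed, which gives 4 units of cortex (5966 nuclei) and 4 units of hippocampus (5658 nuclei) from 10 libraries. The labels do not tie these numbers to mice, so the p-values measure the spread between units, which may be technical.

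Immediate early genes are transcribed within minutes of synaptic activity, growth factors or other stimuli, without new protein synthesis, through factors such as CREB and SRF that are already bound at their promoters. Most of the genes described here encode transcription factors that switch on a later set of genes, whereas Arc acts directly at synapses. In brain tissue they are used as marks of recently active neurons, and several of them also respond in glia and blood vessel cells. Because nuclear RNA is close to the point of synthesis, nuclei carry such transcripts soon after induction.

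Promoter sequences are shown because the 10 genes turned out to be detected together in single nuclei, and because the response to activity of genes of this kind runs through short elements near the start site. RefSeq promoters (GRCm38.p6) matched 7 of the 10 genes, and Arc, Egr1 and Egr3 are named only. In the 250 bases before the start, the core of the cAMP response element (CRE), TGACG on either strand, was found in 9 of their 11 promoter windows (Egr2 has 5, 2 of them without it), against 17.7% of all 32817 promoters. Counted per gene, at least 1 window held it in 7 of 7 genes, against 19.8% of all 26994 genes. The full CRE, TGACGTCA, which contains that core, was found in 0 of 7 (1.55% of all promoters), and the AP-1 site TGANTCA in 0 of 7 (6.75%). The EGR site GCGGGGGCG was found in Fosb and Nr4a1 (2.57% of all promoters) and GCGTGGGCG in none of them (0.536%). TATAAA was found in Fos (12.4%), and the serum response element known as the CArG box in Egr2 (1.47%). A match describes letters in this window and is not a binding site. The 4 promoters below, of Fos at chr12:85473640-85473889 (plus strand), Egr4 at chr6:85513590-85513839 (minus strand), Junb at chr8:84978749-84978998 (minus strand) and Fosb at chr7:19310046-19310295 (minus strand), are written 5′ to 3′ up to the base before the start, with each TGACG core in capitals on either strand. The Fosb window overlaps an annotated exon by 6 bases, and the others lie upstream of the gene.
Fos: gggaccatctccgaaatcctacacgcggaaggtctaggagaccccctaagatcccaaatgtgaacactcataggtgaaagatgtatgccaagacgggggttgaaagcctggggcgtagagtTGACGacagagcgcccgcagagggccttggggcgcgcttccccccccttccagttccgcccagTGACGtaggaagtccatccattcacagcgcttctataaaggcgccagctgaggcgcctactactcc
Egr4: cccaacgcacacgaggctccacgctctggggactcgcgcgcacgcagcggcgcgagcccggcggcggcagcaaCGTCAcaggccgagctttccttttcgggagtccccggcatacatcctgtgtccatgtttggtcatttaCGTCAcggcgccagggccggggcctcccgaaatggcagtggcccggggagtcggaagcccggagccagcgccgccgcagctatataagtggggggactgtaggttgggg
Junb: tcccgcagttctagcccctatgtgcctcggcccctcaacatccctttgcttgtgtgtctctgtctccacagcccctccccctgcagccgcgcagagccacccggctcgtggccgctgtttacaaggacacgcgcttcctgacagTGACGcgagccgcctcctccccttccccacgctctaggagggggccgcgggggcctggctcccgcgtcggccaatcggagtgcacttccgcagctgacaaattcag
Fosb: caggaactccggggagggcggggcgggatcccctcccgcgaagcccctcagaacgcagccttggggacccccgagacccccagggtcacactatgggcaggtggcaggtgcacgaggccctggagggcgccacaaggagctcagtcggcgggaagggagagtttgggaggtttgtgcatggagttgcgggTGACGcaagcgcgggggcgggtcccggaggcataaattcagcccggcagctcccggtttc

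The genes lie apart in the genome (mm10, GENCODE M21). Fos is at chr12:85473890-85477273, Fosb at chr7:19302696-19310051, Junb at chr8:84974484-84978718, Arc at chr15:74669083-74672570, Npas4 at chr19:4984355-4990316, Egr1 at chr18:34859823-34864984, Egr2 at chr10:67535475-67542188, Egr3 at chr14:70077203-70082614, Egr4 at chr6:85511121-85513589 and Nr4a1 at chr15:101254269-101274795. All 10 are annotated as protein-coding. Junb overlaps the gene Prdx2 on the opposite strand by 351 bases, and none of the sources used here states the strand of counting, so a part of the Junb UMIs cannot be assigned with certainty.

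Libraries held 1443244 to 2600788 UMIs. Median UMIs per nucleus were 2505 in cortex unit 0, 1106.5 to 1306 in the other cortex units and 792.5 to 1172 in the hippocampus units. Unit 0 thus stood apart in median depth over all nuclei, highest in cortex and lowest in hippocampus. This order did not hold within every class. In dentate granule-like nuclei the median was 1264.5 UMIs in hippocampus unit 0 and 1088, 990 and 1080.5 in units 1 to 3. Region markers followed the labels for dentate granule-like nuclei (1185 in hippocampus, 2 in cortex) and largely for cortical layer 2-4-like nuclei (1636 in cortex, 192 in hippocampus). Hippocampus libraries also held 124 layer 5-like and 130 layer 6-like nuclei. Mitochondrial transcripts made up 0.111% to 0.136% of UMIs in the hippocampus libraries and 0.0442% to 0.0516% in the cortex libraries, and their part in the results was not tested. Excitatory neuron-like nuclei made up 65.7% of cortex and 44.9% of hippocampus nuclei, so in sums over all nuclei a difference in makeup and a difference in level cannot be told apart, and each result is also given within a class.

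Over all nuclei, the 10 genes together took 5.11, 7.93, 8.15 and 8.32 of every 10000 UMIs in cortex units 0 to 3, and 3.65, 2.85, 2.87 and 2.95 in hippocampus units 0 to 3. All cortex units lay above all hippocampus units, and cortex unit 0 was the lowest of its region while hippocampus unit 0 was the highest of its own. Of the 9 genes with enough UMIs to test, 9 passed an adjusted p of 0.05 with the higher level in cortex, whereas 8.53% of all 12855 genes tested were called higher there, 9.19% lower and 17.7% in either direction (edgeR quasi-likelihood test, Benjamini-Hochberg). Their median difference, cortex minus hippocampus, was 1.21 on the log2 scale, against 0.0078 over all genes tested.

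Of the AP-1 genes, Fos and Fosb encode partners that bind DNA only as dimers with a Jun protein, and Junb encodes such a Jun protein. Levels are given in CPM, here the UMIs of a gene per 1000000 UMIs of the same nuclei. Fos was at 23.8, 50.5, 59.98 and 63.0 CPM in cortex units 0 to 3, and at 22.2, 24.5, 20.8 and 17.8 in the hippocampus units. Cortex unit 0 lay inside the hippocampus range and the other 3 cortex units above it, with a log2 difference of 1.20 ± 0.27 (SE) and an edgeR adjusted p of 0.00819. Fosb was at 7.49, 20.6, 17.6 and 18.4 CPM in cortex and 5.22, 5.65, 4.85 and 6.69 in hippocampus. No unit overlapped, although cortex unit 0 came close, and the log2 difference was 1.49 ± 0.34 (edgeR adjusted p = 0.00765). Junb was at 72.8, 154, 163 and 175 CPM in cortex and 57.6, 52.1, 68.6 and 69.1 in hippocampus. The regions did not overlap (log2 difference 1.20 ± 0.23, edgeR adjusted p = 0.00327).

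The EGR genes encode zinc-finger factors that bind GC-rich promoter sites. Egr1 was at 88.0, 137, 131 and 146 CPM in cortex and 74.6, 47.7, 43.7 and 47.4 in hippocampus. The regions did not overlap, with unit 0 of each nearest to the other region, and the log2 difference was 1.21 ± 0.19 (edgeR adjusted p = 0.000873). Egr2, which is also known for its part in myelination, was at 5.67, 9.68, 10.9 and 10.02 CPM in cortex and 1.56, 0.628, 0.693 and 0.557 in hippocampus. The regions did not overlap (log2 difference 3.08 ± 0.42, edgeR adjusted p = 0.000305), and the values of hippocampus units 1, 2 and 3 rest on 1 UMI each. Egr4 was at 24.5, 67.3, 65.4 and 63.4 CPM in cortex and 11.7, 13.2, 12.47 and 22.8 in hippocampus. Cortex unit 0 and hippocampus unit 3 came within a short distance of each other without overlap, and the log2 difference was 1.89 ± 0.33 (edgeR adjusted p = 0.00168). Egr3 was at 3.86, 2.53, 0.839 and 1.67 CPM in cortex and 1.83, 0.628, 1.39 and 1.11 in hippocampus. The regions overlapped, and with 29 UMIs in cortex and 12 in hippocampus Egr3 was below the filter on low counts, so a difference was not detectable at this depth.

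Npas4 encodes a neuron-selective factor induced by calcium entry, Nr4a1 an orphan nuclear receptor, and Arc a protein of the postsynaptic site that takes part in the removal of AMPA receptors. Npas4 was at 41.3, 50.1, 65.0 and 59.3 CPM in cortex and 28.2, 18.8, 20.8 and 21.7 in hippocampus. The regions did not overlap (log2 difference 1.23 ± 0.18, edgeR adjusted p = 0.000468). Nr4a1 was at 141, 156, 179 and 170.3 CPM in cortex and 103, 64.0, 67.9 and 56.3 in hippocampus. Every cortex unit was higher than every hippocampus unit, of which unit 0 was the highest (log2 difference 1.14 ± 0.16, edgeR adjusted p = 0.000444). Arc was at 103, 145, 122 and 124 CPM in cortex and 59.2, 57.8, 45.7 and 51.8 in hippocampus. Arc had the smallest adjusted p of the set in this comparison, with a log2 difference of 1.20 ± 0.13 and no overlap (edgeR adjusted p = 7.94e-05).

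**Figure D1:**
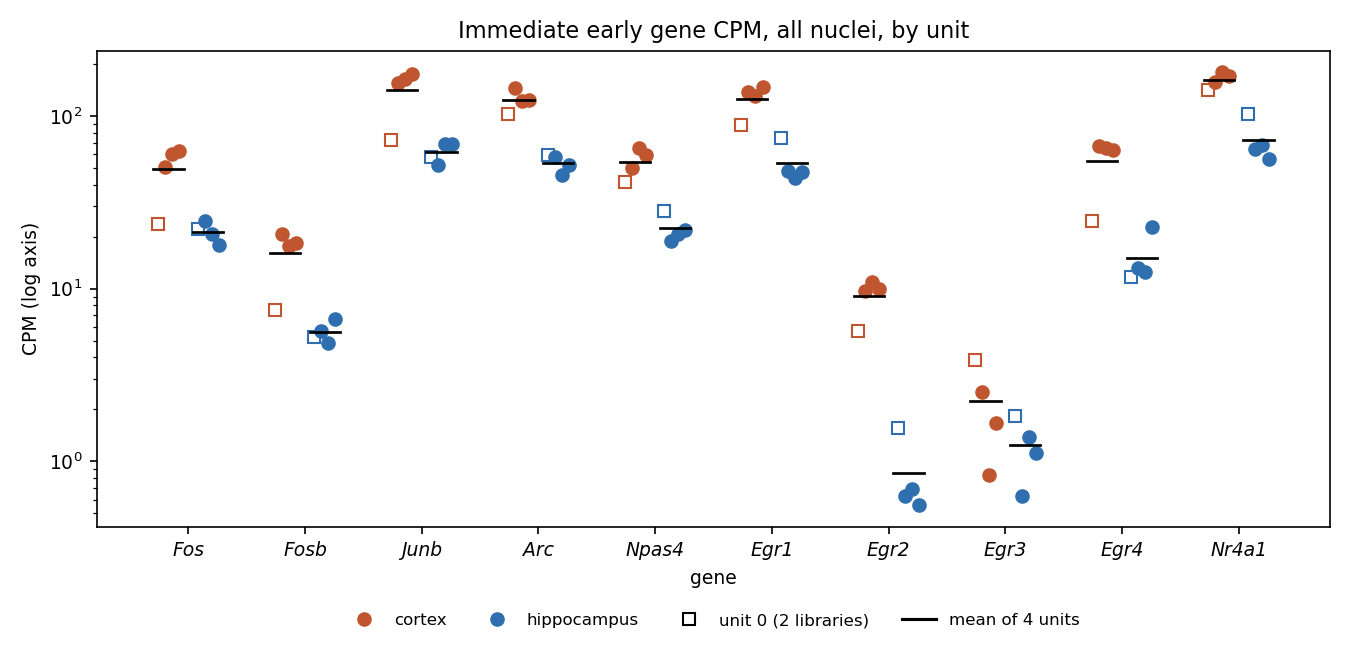
CPM (y, log axis) of each of the 10 genes over all nuclei, with 1 point per unit for 4 cortex and 4 hippocampus units. For 8 of the genes all cortex points lie above all hippocampus points, as for 9.3% of all 14212 genes detected in at least as many nuclei as Egr3; for Fos cortex unit 0 (23.8) lies inside the hippocampus range, and Egr3 overlaps.

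Within excitatory neuron-like nuclei (3921 in cortex, 2543 in hippocampus), 8 of 8 genes tested were higher in cortex, against 7.53% of 10963 genes called higher there, 8.13% lower and 15.7% in either direction. Their median log2 difference was 1.16, against 0.0071 over all genes tested. Arc was at 135, 162, 138 and 143 CPM in cortex and 75.3, 88.3, 60.2 and 71.2 in hippocampus. There was no overlap (log2 difference 0.95 ± 0.14, edgeR adjusted p = 0.000377). Fos was at 26.2, 51.1, 66.5 and 66.3 CPM in cortex and 18.4, 21.8, 24.3 and 22.6 in hippocampus, and here cortex unit 0 lay just above the hippocampus range (log2 difference 1.25 ± 0.28, edgeR adjusted p = 0.00749). Egr4 was at 27.4, 69.2, 70.7 and 75.0 CPM in cortex and 11.3, 19.4, 14.1 and 29.1 in hippocampus. Cortex unit 0 lay below hippocampus unit 3, and the log2 difference was 1.73 ± 0.35 (edgeR adjusted p = 0.0038).

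The other genes moved in the same direction within these nuclei. The log2 differences were 1.24 ± 0.17 for Egr1 (edgeR adjusted p = 0.000176), 1.07 ± 0.23 for Junb (0.0058), 0.97 ± 0.15 for Nr4a1 (0.000682) and 0.86 ± 0.18 for Npas4 (0.00506). Fosb differed by 1.36 ± 0.42 (edgeR adjusted p = 0.0399), a call that was lost in 9 of its 17 alternative settings, among them leaving out any 1 hippocampus unit or cortex unit 1, 2 or 3 (0.0613 to 0.111). Fosb levels were 6.36, 23.1, 19.6 and 20.2 CPM in cortex and 5.12, 6.05, 6.41 and 8.63 in hippocampus, so that cortex unit 0 lay inside the hippocampus range. Egr2 (62 UMIs in cortex, 4 in hippocampus) and Egr3 (20 and 11) were below the filter. In an alternative chosen after seeing the data, cortical layer-like nuclei of the cortex were compared with dentate and CA-like nuclei of the hippocampus alone. There 7 of 7 genes tested were higher in cortex. That comparison sets different cell types against each other. The share of all genes called in it is not given here, so the count cannot be judged against it. The excitatory class was made of different clusters in the 2 regions, mostly layer-like in cortex and 46.6% dentate granule-like in hippocampus. The regional order did not hold in every shared subtype. In layer 6-like nuclei the 10 genes together were at 671, 1027, 1285 and 1117 CPM in cortex units 0 to 3 and at 833, 2029, 1281 and 1696 in the few such nuclei of the hippocampus units (20 to 62 a unit). In layer 5-like nuclei they were at 647, 748, 1174 and 810.1 in cortex and 419, 688, 918 and 590.2 in hippocampus. Both pairs of ranges overlapped, and for layer 6 the hippocampus values were not the lower ones. Marker lists of other cell types in these nuclei summed to 469 to 750 CPM in cortex and 580 to 816 in hippocampus for astrocytes, and to 172 to 211 and 421 to 498 for oligodendrocytes. No astrocyte marker was at 0 in any unit, the oligodendrocyte list was higher in hippocampus, and the part of both in the result was not tested. Glial nuclei, described below, also held Arc and Egr1 at higher levels in every cortex unit than in any hippocampus unit. The regional order was therefore not particular to excitatory nuclei.

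The share of nuclei with at least 1 UMI of a gene depends on depth, so shares were also taken after thinning each nucleus to 500 UMIs, which left out 6 cortex nuclei (0.101%) and 897 hippocampus nuclei (15.9%, and 29.1% of unit 0). Over all nuclei, thinned, Arc was detected in 5.88% ± 0.92 (SD, n = 4 units) of cortex and 2.204% ± 0.724 of hippocampus nuclei, and in 16.6% ± 4.09 and 5.65% ± 0.99 without thinning. The 2-sided exact permutation test gave p = 0.0286 for both, the smallest that 4 units against 4 allow. Thinned shares of Egr1 (5.70% against 2.24%), Egr2 (0.516% against 0.0668%), Egr4 (2.41% against 0.699%) and Nr4a1 (6.89% against 2.71%) also reached that value. Those of Fos (2.43% ± 1.02 against 0.817% ± 0.313), Junb (5.72% ± 1.90 against 2.62% ± 0.30) and Npas4 (2.28% ± 0.56 against 0.941% ± 0.469) gave an exact permutation p of 0.0571, Fosb 0.0857 and Egr3 0.114. Thus 5 of 10 genes passed after thinning and 9 of 10 without it, all with the higher share in cortex, against 8.76% and 19.2% of the 14212 genes detected in at least as many nuclei as Egr3, with Egr3 as the exception in the unthinned shares (exact permutation p = 0.2). In excitatory neuron-like nuclei 5 of 10 passed after thinning (Fos, Arc, Egr1, Egr2 and Nr4a1) and 8 of 10 without it, against 7.65% and 3.95% of 12769 genes. These p-values are not adjusted for the number of genes, and with 4 units against 4 none can fall below 0.0286.

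Inhibitory neuron-like nuclei were fewer (573 in cortex, 181 in hippocampus), and 4 of the genes could be tested between regions. Junb and Egr1 were higher in cortex, 2 of 4, against 0.207% of 4829 genes called higher in cortex and 0.311% in either direction. Junb was at 53.6, 104, 62.0 and 156 CPM in cortex and 11.8, 16.0, 12.48 and 0 in hippocampus, where these stand for 2, 1, 1 and 0 UMIs. The regions did not overlap (log2 difference 3.09 ± 0.60, edgeR adjusted p = 0.0078). Glial nuclei, used below as a guide to free RNA, held Junb at 47.7, 186, 92.3 and 159 CPM in cortex units. In hippocampus units their Junb was at 30.3, 13.4, 24.6 and 43.8. Inhibitory Junb lay below the glial level in cortex units 1 to 3 and hippocampus units 0, 2 and 3. The part of free RNA in the Junb result was not tested. Egr1 was at 69.9, 132, 57.8 and 95.5 CPM in cortex and 17.6, 0, 37.5 and 20.6 in hippocampus, from 3, 0, 3 and 2 UMIs, with no overlap (log2 difference 2.07 ± 0.49, edgeR adjusted p = 0.0439). Arc differed by 1.498 ± 0.46 (edgeR adjusted p = 0.186) and Nr4a1 by 1.42 ± 0.36 (0.0733), which did not pass. Under DESeq2 neither call held (Junb adjusted p = 0.0712, Egr1 0.273). Leaving out hippocampus unit 3 ended the call of Junb (edgeR adjusted p = 0.0622), and leaving out any 1 hippocampus unit or cortex unit 2 ended that of Egr1 (0.0507 to 0.218). Without cortex unit 1, 2 or 3 and with doublets removed Junb fell below the filter on low counts and was not tested, as did Egr1 without cortex unit 0, 1 or 3 and with doublets removed. At clustering resolution 1.0, which put 94 to 175 nuclei per hippocampus unit in this class in place of 34 to 54, both passed with smaller log2 differences, 1.20 for Junb and 1.10 for Egr1.

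Whether the regional difference itself differed between neuron classes was tested in 1 model of both classes. Of 8 genes tested 1 passed, Junb, against 2.74% of 9869 genes in either direction and 1.84% in the direction of Junb. Its regional difference was smaller in excitatory than in inhibitory nuclei by 2.12 ± 0.63 on the log2 scale (edgeR adjusted p = 0.0354), and it passed in 6 of 15 alternatives. The call was lost without hippocampus unit 1, 2 or 3 and without cortex unit 0, 1 or 3 (edgeR adjusted p = 0.0552 to 0.258). At clustering resolution 1.0, with its larger inhibitory class of the hippocampus, the difference was 0.25 (edgeR adjusted p = 0.764). For the other 7 the adjusted p ranged from 0.456 for Egr1 to 0.986 for Fosb, with standard errors of 0.37 to 1.37 on the log2 scale, so that differences of moderate size were not detectable at this depth.

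Within the cortex, excitatory were compared with inhibitory neuron-like nuclei of the same units. Arc, Egr1 and Junb were higher in excitatory nuclei, 3 of 8 tested, against 9.43% of 10039 genes called higher, 9.18% lower and 18.6% in either direction. Arc was at 135, 162, 138 and 143 CPM in excitatory and 55.9, 90.8, 70.2 and 73.8 in inhibitory nuclei of units 0 to 3. It was higher in excitatory nuclei of all 4 units, with a log2 difference of 1.07 ± 0.17 (edgeR adjusted p = 2.99e-08). Arc in cortex glia, at 47.7, 92.9, 154 and 98.3 CPM, lay above its inhibitory level in units 1 to 3. In unit 2 it also lay above the excitatory level. The part of free RNA in these levels was not tested. Junb differed by 0.66 ± 0.16 (edgeR adjusted p = 0.000677) and Egr1 by 0.65 ± 0.16 (0.00107). The log2 differences of Nr4a1 (0.33, edgeR adjusted p = 0.0746), Npas4 (0.32, 0.356), Egr4 (0.40, 0.236), Fosb (0.56, 0.451) and Fos (0.095, 0.844) did not pass. Arc alone of the 3 passed without the unit as a block (Junb adjusted p = 0.179, Egr1 0.0805 in edgeR) and without cortex unit 2 (0.0838 and 0.0593), and Egr1 did not pass under DESeq2 (0.0548). Oligodendrocyte markers summed to 211, 202, 172 and 174 CPM in excitatory and 193, 422, 479 and 278 in inhibitory nuclei of units 0 to 3, higher in the inhibitory nuclei of units 1 to 3. Of 9 heat shock and dissociation genes tested, Dnajb4 was higher in excitatory nuclei (log2 difference 0.56, edgeR adjusted p = 0.0313) and Hspa8 lower (−0.30, 0.0131), while 0 passed in DESeq2. The part of either in the result was not tested.

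Levels in the other cell classes were read as a description. Glia (astrocyte-, oligodendrocyte- and precursor-like nuclei) served as a guide to the level that free RNA could give. Npas4 and Arc are known mainly from neurons. In glia of cortex units 0 to 3 Arc was at 47.7, 92.9, 154 and 98.3 CPM, above its excitatory level in unit 2. Microglia-like nuclei (177 in cortex, median 2298 UMIs) were left out of this group. They held Arc at 68.5, 184, 90.7 and 89.0 CPM, above its excitatory level in unit 1, and Npas4 at 42.4, 84.8, 41.2 and 37.1. In cortex, Arc was detected in 10.04% of 269 glial nuclei (95% exact binomial interval 6.72% to 14.3%, median 1463 UMIs) and in 17.4% of excitatory nuclei (16.2% to 18.6%, median 1269 UMIs). Fos was detected in 6.32% of both, although after thinning in 1.12% of glial and 2.78% of excitatory nuclei. Npas4 was detected in 4.83% of cortex glia and 7.22% of excitatory nuclei. In cortex, then, excitatory shares of Fos, of Npas4, and of Egr4 at 7.06% in glia and 7.63% in excitatory nuclei, could not be told from the glial share without thinning. In hippocampus, Arc was detected in 1.39% of 1006 glial nuclei (0.763% to 2.32%, median 734.5 UMIs) and in 8.73% of excitatory nuclei (7.66% to 9.89%, median 1327 UMIs). Npas4 was detected there in 0.298% of glial and 4.17% of excitatory nuclei. In glia of hippocampus units 0 to 3 Arc was at 16.1, 13.4, 0 and 31.3 CPM, below its level in every cortex unit of glia. Glial Egr1 was at 65.0, 116, 76.9 and 60.5 CPM in cortex and 24.2, 22.4, 12.3 and 31.3 in hippocampus, without overlap. Glial Junb, Npas4, Egr2, Egr4 and Nr4a1 did not overlap either, while Fos, Fosb and Egr3 did. The part of free RNA in the regional difference of excitatory nuclei was not tested. The intervals cover counting error only, and UMIs in glia cannot be split here into expression and free RNA.

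Endothelial-like nuclei (190 in cortex, 176 in hippocampus) carried a different mix of the same genes. Nr4a1 was at 318, 133, 209 and 296 CPM in endothelial-like nuclei of cortex units 0 to 3, and Junb at 124, 211, 264 and 305. Arc, by contrast, was at 32.8, 11.1, 55.3 and 17.9, below its value in excitatory nuclei in every unit. Npas4 was at 14.0, 33.3, 43.0 and 8.97, also below its excitatory value in all 4 units. Nuclei with at least 3 of the 10 genes made up 22.1%, 11.1%, 27.5% and 21.6% of these cortical nuclei, at median depths of 3416, 1749, 2861 and 1984 UMIs. In hippocampus, endothelial-like nuclei of unit 0 stood apart, with 764 CPM of the 10 genes together against 174, 151 and 312 in units 1 to 3. Nr4a1 was at 309.97 there and at 40.2, 0 and 54.6 in the other units.

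**Figure D2:**
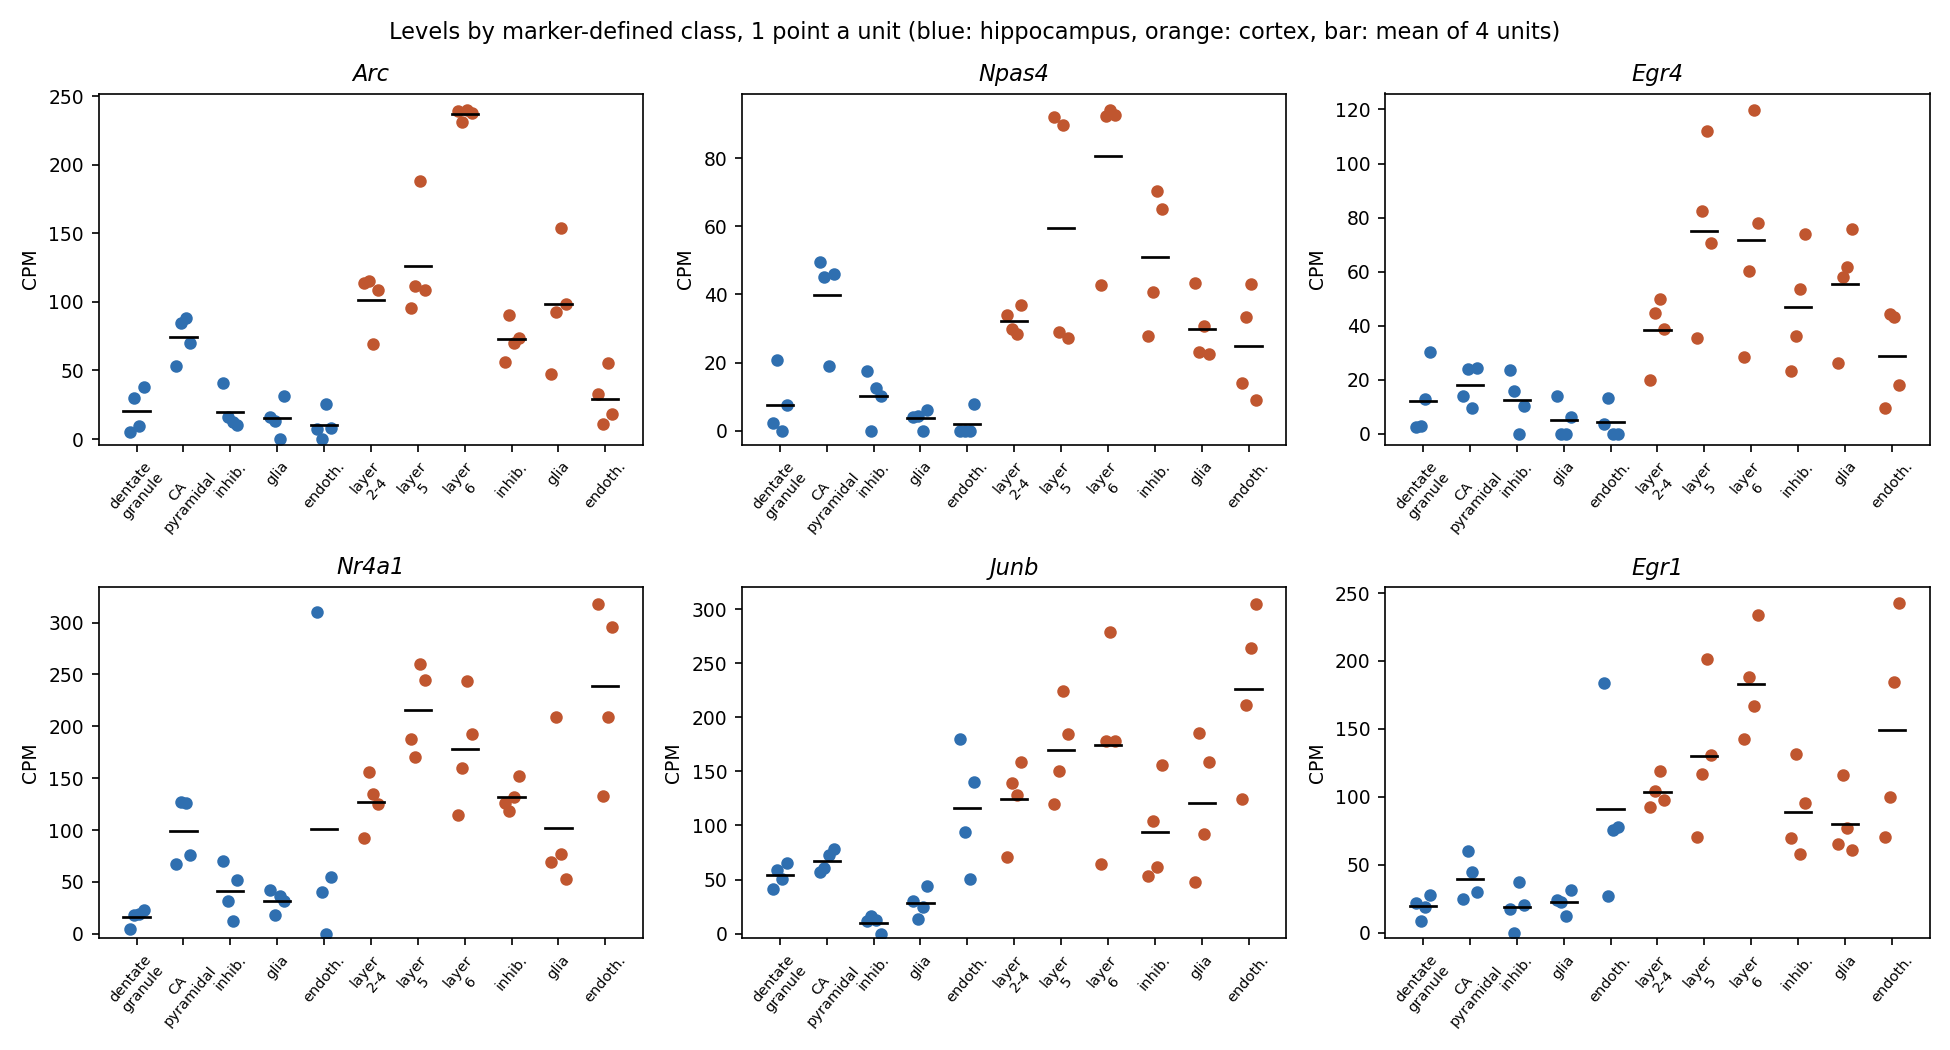
CPM (y) of Arc, Npas4, Egr4, Nr4a1, Junb and Egr1 by marker-defined class, with 1 point per unit, hippocampus in blue, cortex in orange and a bar at the mean of 4 units. In cortex Arc is highest in layer 6-like nuclei (231 to 239.8), while Nr4a1 and Junb reach 318 and 305 in endothelial-like nuclei of the cortex.

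Among hippocampal excitatory nuclei, granule-like nuclei of the dentate gyrus were compared with pyramidal-like nuclei of CA1 and CA3 of the same units. Arc and Nr4a1 were lower in the dentate nuclei, 2 of 3 tested, against 14.6% of 6684 genes called lower, 13.4% higher and 28% in either direction. Arc was at 4.82, 29.6, 9.52 and 37.6 CPM in dentate and 53.0, 84.5, 88.5 and 70.2 in CA nuclei. The classes did not overlap (log2 difference −1.94 ± 0.31, edgeR adjusted p = 5.67e-07). Nr4a1 was at 4.82, 17.8, 19.0 and 22.6 in dentate and 67.2, 127, 126 and 75.5 in CA nuclei. All dentate units lay below all CA units (log2 difference −2.69 ± 0.30, edgeR adjusted p = 8.83e-12). Junb was at 41.0, 59.3, 50.8 and 65.3 in dentate and 56.6, 60.3, 72.7 and 78.2 in CA nuclei. These ranges overlapped and the log2 difference of −0.42 ± 0.24 did not pass (edgeR adjusted p = 0.207). Npas4, below the filter, was at 2.41, 20.8, 0 and 7.53 in dentate and 49.5, 45.2, 19.0 and 45.9 in CA nuclei. Both Arc and Nr4a1 passed under all 12 alternatives. The dentate levels of Arc rest on 2, 10, 3 and 15 UMIs in units 0 to 3. In hippocampal glia of these units Arc was at 16.1, 13.4, 0 and 31.3 CPM and Nr4a1 at 42.4, 17.9, 37.0 and 31.3. Dentate Arc lay above glia in units 1 to 3 and below it in unit 0, and dentate Nr4a1 lay below glia in every unit. The dentate UMIs cannot be split here into expression and free RNA. Median depths differed, at 990 to 1264.5 UMIs in dentate and 1739 to 1995 in CA nuclei, while the levels above are in CPM. Oligodendrocyte markers summed to 563 to 651 CPM in dentate and 286 to 341 in CA nuclei, and mitochondrial transcripts to 649 to 1187 and 340 to 548. Both were higher in the dentate nuclei of every unit, and their part in the result was not tested.

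Most dentate granule-like nuclei held none of the 10 genes. Of 1185 such nuclei, 1045 held 0, 127 held 1, 9 held 2, 2 held 3, 1 held 6 and 1 held 9. The last, from unit 3, had 27 UMIs of these genes among 2331, held all but Egr2, and carried 3 UMIs of the granule cell marker Prox1. The nucleus with 6 genes (Fos, Arc, Npas4, Egr1, Egr2 and Egr4), also from unit 3, had 1667 UMIs and no Prox1 UMI. Neither was called a doublet.

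In the cortex, excitatory nuclei with the markers of layers 2 to 4 were compared with those of layer 6. Arc, Egr1, Egr4, Npas4 and Nr4a1 were lower in the upper layers, 5 of 8 tested, against 6.18% of 7513 genes called lower, 6.04% higher and 12.2% in either direction. Arc was at 113, 115, 69.3 and 109 CPM in layer 2-4-like and 239, 231, 239.8 and 237 in layer 6-like nuclei. The layers did not overlap, and the layer 6 values were close to each other in all 4 units (log2 difference −1.20 ± 0.14, edgeR adjusted p = 4.67e-11). Npas4 was at 34.0, 29.8, 28.4 and 36.8 in layer 2-4-like and 42.8, 92.4, 94.2 and 92.8 in layer 6-like nuclei. Again there was no overlap, with unit 0 the lowest in layer 6 (log2 difference −1.23 ± 0.24, edgeR adjusted p = 3.57e-05). Egr1 was at 92.7, 104, 119 and 97.6 against 143, 188, 167 and 234, with no overlap (log2 difference −0.80 ± 0.15, edgeR adjusted p = 2.35e-05). Astrocyte markers summed to 657, 406, 430.02 and 425 CPM in layer 2-4-like and 1121, 561.4, 561.04 and 701 in layer 6-like nuclei. Heat shock and dissociation genes summed to 1193, 1785, 1706 and 1853 against 1510.2, 2082, 1872 and 2059. Both lists were higher in layer 6 in all 4 units, and their part in the result was not tested.

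Egr4 differed by −0.86 ± 0.24 between these layers (edgeR adjusted p = 0.00682) and Nr4a1 by −0.45 ± 0.15 (0.0288). Without cortex unit 2 neither held (edgeR adjusted p = 0.179 for Egr4 and 0.333 for Nr4a1), and Nr4a1 did not hold without unit 3 (0.143). The call of Nr4a1 held in 5 of 11 alternatives and that of Egr4 in 7, and those of Arc, Egr1 and Npas4 in all 11. The AP-1 genes did not pass, with −0.61 for Fos (edgeR adjusted p = 0.101), −0.76 for Fosb (0.275) and −0.44 for Junb (0.051). Layer 5-like nuclei, which were not tested, had Arc at 95.4, 112, 188 and 109 and Npas4 at 91.9, 29.1, 89.6 and 27.2 CPM. Arc in hippocampus-library nuclei with layer 6 markers was at 241, 676, 142 and 431, from 24, 19, 5 and 15 UMIs. These few nuclei stood above the dentate and CA-like nuclei of the same libraries in every unit.

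Co-detection within a nucleus was compared with the number expected if genes were detected independently of each other, within each unit and each of 10 bins of total UMIs. Over the 45 pairs of the 10 genes, cortex excitatory nuclei held 3218 pairs against 1796 expected, a ratio of 1.79, with 1.44, 1.96, 1.82 and 2.15 in units 0 to 3. In hippocampus the count was 757 against 360 expected, a ratio of 2.10, with 1.72, 2.29, 2.06 and 3.08 in the units. All 8 units lay above 1, and unit 0 was the lowest in each region. In cortex 42 of 45 pairs were above 1 and 33 were above 1 in every unit, and in hippocampus 43 and 24. Over all gene pairs of like detection and at least 1 expected nucleus, the median ratio was 1.03 in cortex and 1.01 in hippocampus, and 9.23% and 16.6% of pairs exceeded 1.5. Of the pairs of these 10 genes that met the same limit, 34 of 43 (79.1%) and 27 of 28 (96.4%) did.

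The excess over the expected count was seen both in pairs of rarely detected and in pairs of often detected genes of the cortex. Fosb and Npas4 shared 27 nuclei against 6.57 expected (ratio 4.11), Fos and Fosb 26 against 6.40 (4.06), Fosb and Egr4 28 against 7.58 (3.70), and Fos and Npas4 75 against 22.2 (3.38). Among genes detected more often, Junb and Nr4a1 shared 239 nuclei against 142 expected (1.68) and Arc and Nr4a1 224 against 162 (1.38). The ratio a pair can reach falls as the shares of its genes rise, so these ratios do not rank the pairs by strength. Within subtypes the ratio over all 45 pairs was 1.93 in layer 2-4-like, 1.29 in layer 5-like and 1.90 in layer 6-like nuclei of the cortex. It was 1.84 in CA-like nuclei, 1.598 in cortical inhibitory nuclei, and 5.70 in dentate nuclei (66 pairs against 11.6), with 55 of the 66 from unit 3, which holds the nuclei with 9 and 6 genes. Removing doublets left 1.84 in cortex and 2.12 in hippocampus.

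**Figure D3:**
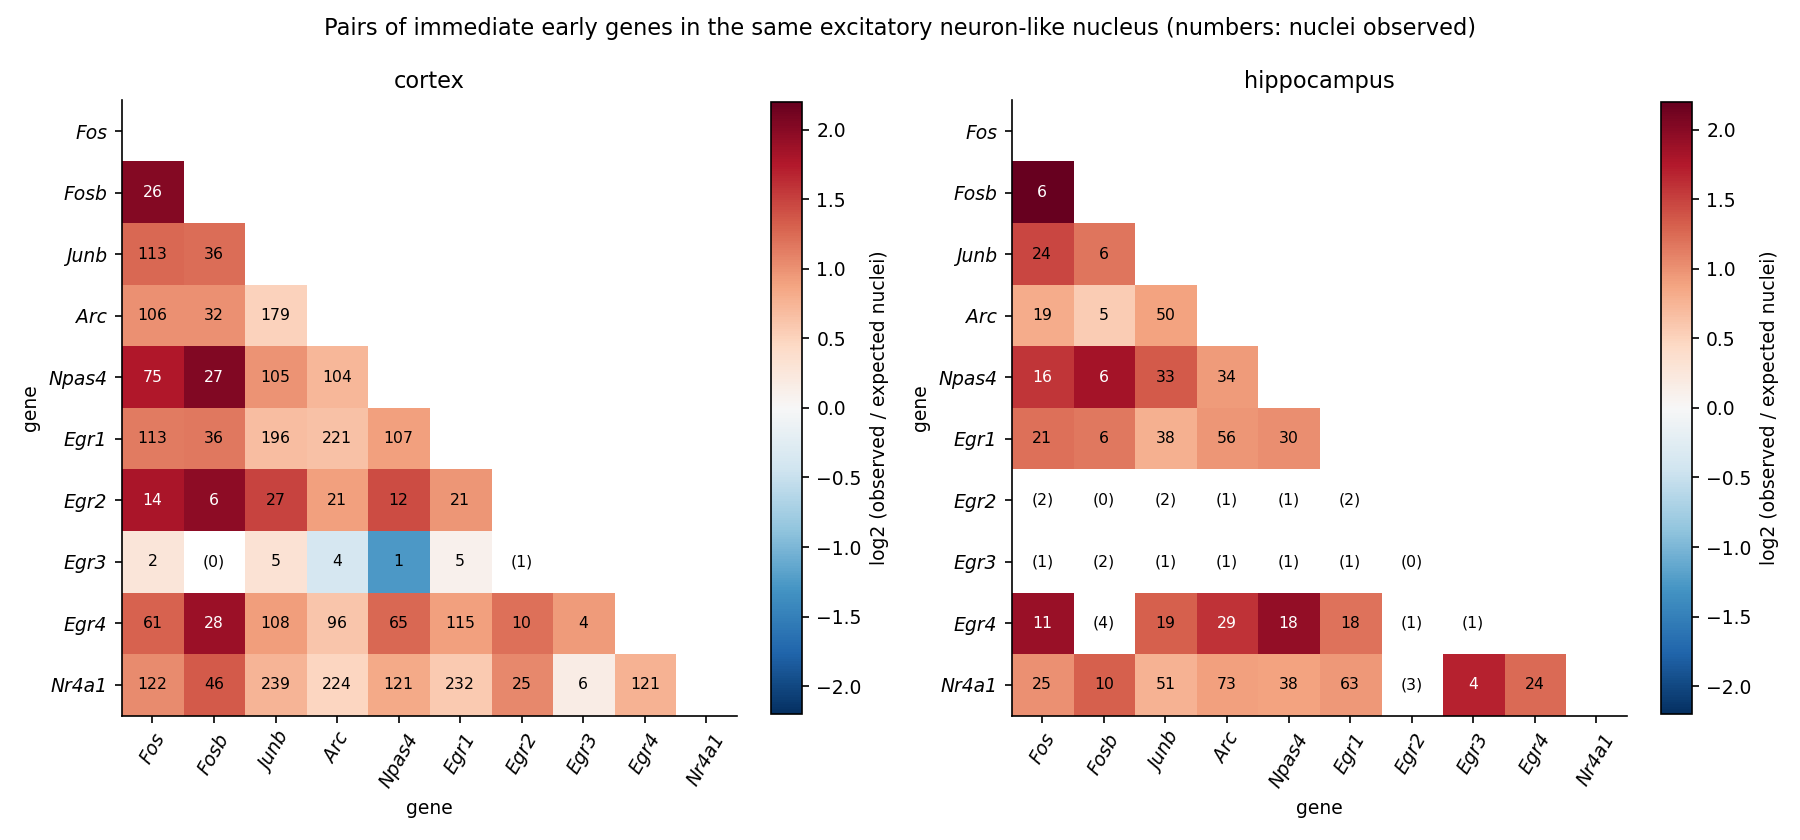
Log2 of observed over expected excitatory neuron-like nuclei with both genes of a pair (colour), for the 45 pairs in cortex and in hippocampus, with the number of nuclei observed in each cell, and no colour and the number in parentheses where too few nuclei were expected. Most coloured cells are above 0, and the few below it in cortex are pairs with Egr3, of 4 nuclei or fewer.

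The excess sat in nuclei with many of the genes rather than in pairs alone. At least 2 of the 10 genes were detected in 905 cortex excitatory nuclei against 961 expected and in 221 hippocampus nuclei against 228. The expected counts keep how often each gene was detected, so a count near them at 2 genes does not show independence. At least 3 were detected in 415 against 289 and in 105 against 50.9, and at least 4 in 203 against 67.3 and in 40 against 8.63. At least 5 were detected in 106 against 11.6 in cortex, a ratio of 9.15, and in 22 against 1.02 in hippocampus, a ratio of 21.5. No excitatory nucleus held all 10, and 1 in each region held 9. Over all nuclei 4 in cortex and 1 in hippocampus held 9.

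**Figure D4:**
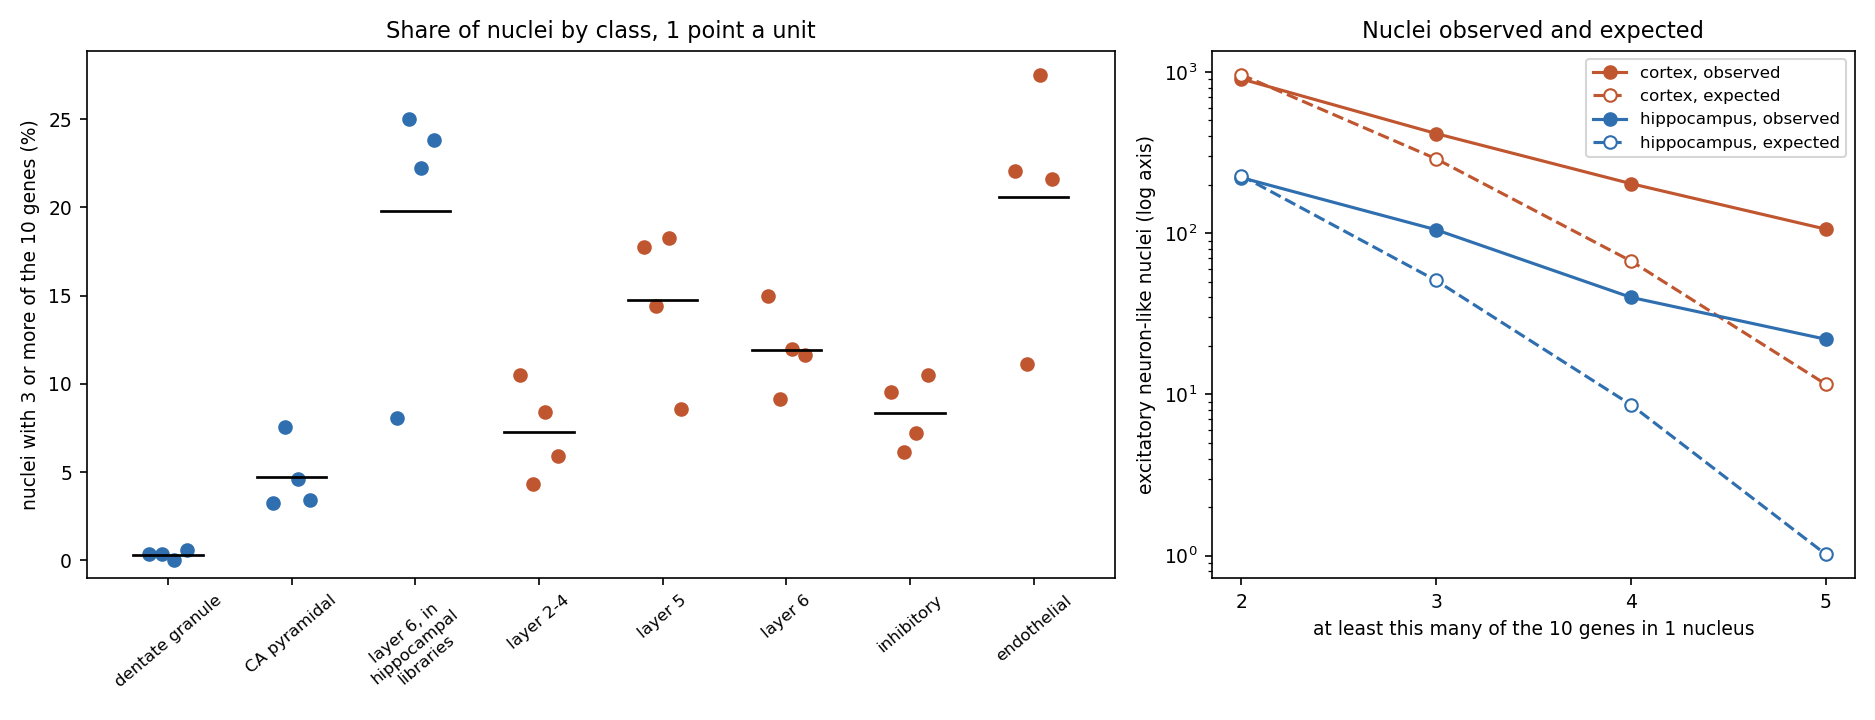
Left, percent of nuclei with 3 or more of the 10 genes by class, without thinning, with 1 point per unit and a bar at the mean, hippocampus in blue and cortex in orange. Right, number of excitatory neuron-like nuclei (log axis) with at least 2, 3, 4 or 5 of the genes, observed (filled) and expected under independent detection (open), which are close at 2 and part to 106 against 11.6 in cortex at 5.

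Nuclei with at least 3 of the 10 genes are called member-rich below. They made up 14.1%, 8.40%, 11.3% and 9.43% of excitatory nuclei in cortex units 0 to 3 (118, 92, 105 and 100 nuclei), and 4.98%, 4.68%, 3.23% and 3.17% in hippocampus units (45, 24, 17 and 19). The regions did not overlap in these shares, which depend on depth. After thinning to 500 UMIs the shares were 0.599%, 1.65%, 2.69% and 2.92% in cortex and 0.644%, 0.598%, 1% and 0.675% in hippocampus, so that the regions overlapped and cortex unit 0 was the lowest of its region. In cortex these nuclei held 47.4% to 55.7% of the UMIs of the 10 genes and 12.9% to 20.8% of all UMIs of the class. They were also deeper, with a median of 3707 UMIs against 2066 in nuclei with none of the genes in cortex unit 0, and 1401.5 against 988.5 in unit 1. By subtype, 7.15% of layer 2-4-like, 14.8% of layer 5-like and 11.4% of layer 6-like cortex nuclei were member-rich, and 14.5% of those without a subtype. Median depths in units 1 to 3 were 1040 to 1257 UMIs in layer 2-4-like, 1732 to 1810 in layer 5-like and 1015 to 1142 in layer 6-like nuclei. Thinned, the shares in units 0 to 3 were 0.767%, 1.14%, 1.36% and 2.73% in layer 2-4-like, 0%, 0%, 1.92% and 1.08% in layer 5-like and 0%, 2.39%, 5.43% and 4.31% in layer 6-like nuclei. The higher unthinned share of layer 5-like over layer 2-4-like nuclei was thus not seen after thinning. In hippocampus it was 4.65% of CA1-like, 5.13% of CA3-like, 16.2% of layer 6-like and 0.338% (4 of 1185) of dentate granule-like nuclei. Dentate nuclei made up 46.6% of hippocampal excitatory nuclei and 3.81% of the member-rich ones.

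Genes most like the set were named by 1 measure: the ratio of a gene's CPM in member-rich nuclei to that in nuclei with none of the 10 genes, taken as the lowest of the 4 units. A gene with under 3 UMIs in the latter nuclei of a unit was given 3 there, so that such ratios are lower bounds. In cortex, among 6298 genes ranked, the highest named genes were Cyr61 (7.74), Nr4a2 (6.83), Gadd45g (6.56), Nr4a3 (6.02), Btg2 (5.74) and Fosl2 (5.47), followed by Ier2 (2.93), Tiparp (2.73), Dusp6 (2.69) and Zdbf2 (2.38). Nr4a2 and Nr4a3 are the other nuclear receptors of the Nr4a family, Fosl2 is a further Fos protein, and Dusp6 is a phosphatase of ERK. Of these 10 genes 8 belonged to the list of other rapid response genes described below, and Gadd45g and Zdbf2 to none of the lists. Within single layers of the cortex, also chosen after seeing the data, the pooled ratios ran from 2.51 for Zdbf2 to 19.5 for Nr4a2 in layer 2-4-like and from 2.62 for Zdbf2 to 35.5 for Cyr61 in layer 6-like nuclei. The lowest unit was at 0 for Cyr61 and Gadd45g in layer 2-4-like nuclei and for Nr4a2 and Ier2 in layer 6-like nuclei. Cyr61 had 61 UMIs in member-rich layer 6-like nuclei (387 CPM) and 7 in layer 2-4-like ones (21.6 CPM). In hippocampus, among 4502 genes, the named genes were Ptprt (3.99), Garnl3 (3.82), Trib1 (3.82), Htr1f (3.55), Nr4a2 (3.26), Fnbp1l (2.99), Mpped1 (2.92), Nr4a3 (2.70), Emd (2.70) and Btg2 (2.66). The dentate nuclei, which were nearly absent from the member-rich nuclei, weigh on this list. Without them, an alternative chosen after seeing the data, the pooled ratios were 10.6 for Nr4a2, 5.91 for Trib1, 5.78 for Btg2, 3.53 for Garnl3, 3.41 for Emd, 3.03 for Ptprt, 2.51 for Fnbp1l, 2.41 for Htr1f, 2.19 for Nr4a3 and 2.10 for Mpped1. Nr4a3 fell below 1 in 1 unit there (0.905).

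**Figure D5:**
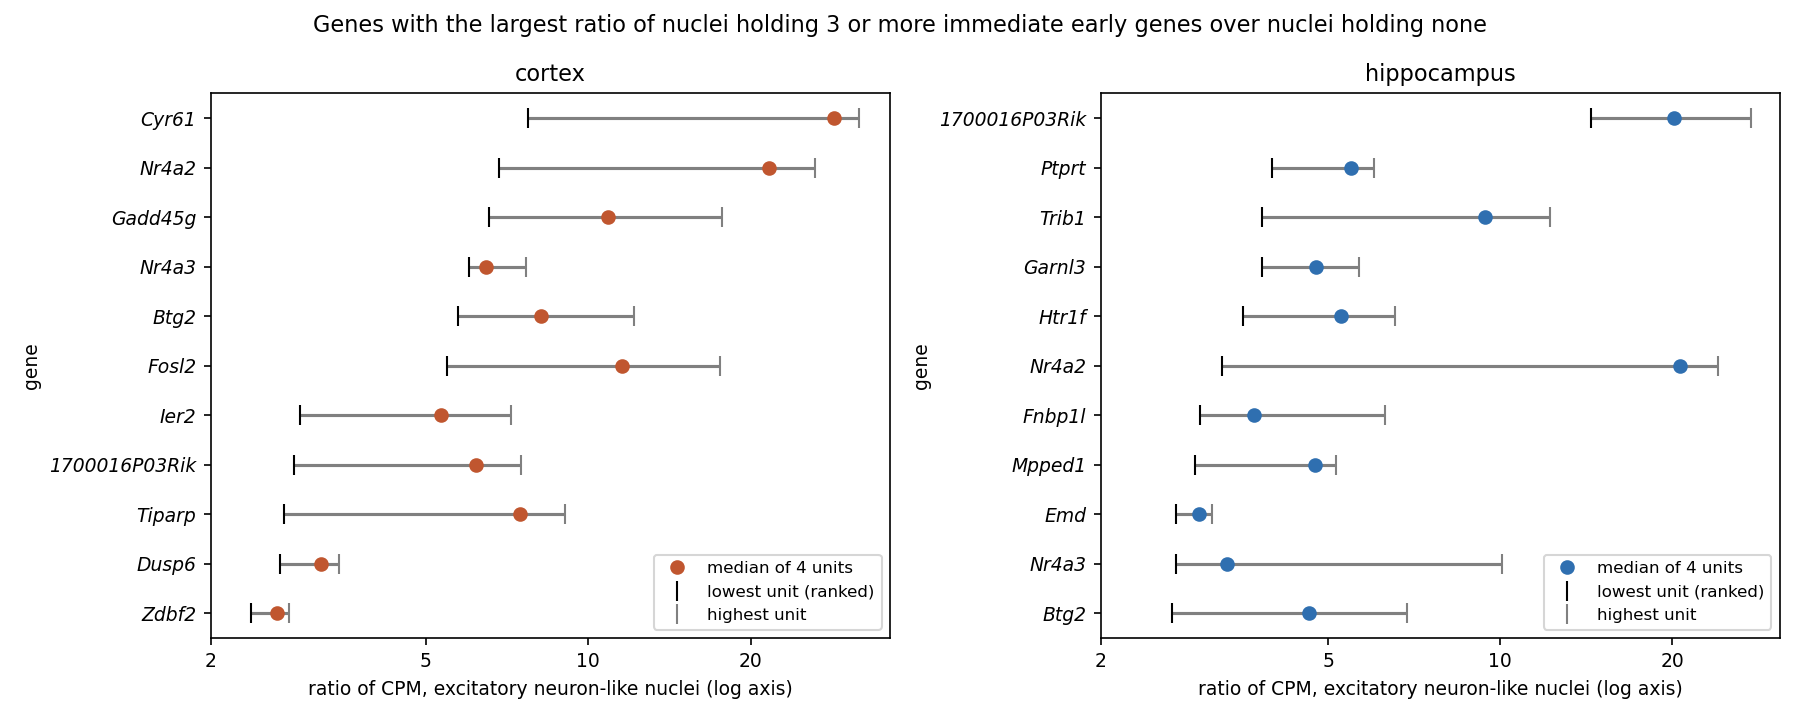
Ratio of CPM in member-rich over member-free excitatory neuron-like nuclei (x, log axis) for the genes most like the set in each region, with the median of 4 units as a point and the lowest and highest unit as bar ends. In cortex the lowest unit runs from 7.74 for Cyr61 to 2.38 for Zdbf2.

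A further gene of this kind, 1700016P03Rik, was chosen after its values were seen. It ranked first in hippocampus, at 14.4 in its lowest unit, with 32 UMIs in member-rich and 6 in member-free nuclei, and eighth in cortex, at 2.85 (76 and 39 UMIs). Without dentate nuclei it had 31 UMIs in 101 member-rich and 2 in 773 member-free nuclei. It was higher in cortex than in hippocampus over all nuclei (log2 difference 1.35 ± 0.25, edgeR adjusted p = 0.00263) and in excitatory nuclei (1.17 ± 0.26, 0.00647). This processed transcript at chr11:75172560-75177633 (mm10, plus strand) contains the hairpins Mir212 at chr11:75173388-75173478 and Mir132 at chr11:75173682-75173747, and it overlaps Ovca2 on the opposite strand by 1692 bases. The mature 3p miRNAs of that locus are shown because they are regulators of RNAs known to follow neuronal activity, with the seed (bases 2 to 8) in capitals, which both share.
mmu-miR-132-3p: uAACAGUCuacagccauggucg
mmu-miR-212-3p: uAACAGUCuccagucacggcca
The counts are those of the host gene and not of these miRNAs. As the strand of counting is not stated, a part of them cannot be assigned with certainty between the host gene and Ovca2.

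Other genes of the response were read from lists chosen with earlier results known. Over all nuclei 11 of 29 other rapid response genes tested (37.9%) were higher in cortex than in hippocampus and 0 lower, against 8.53% and 9.19% of all genes (list median 0.47 against 0.0078 over all genes). Examples were Klf10 (log2 difference 1.21 ± 0.17), Plk3 (1.27 ± 0.25), Trib1 (1.12 ± 0.20) and Dusp6 (0.89 ± 0.18). Of 19 delayed genes, which follow the early factors, 6 were higher in cortex and 3 lower, among them Dusp14 (1.51 ± 0.23), Pcsk1 (1.16 ± 0.27) and Vgf (0.72 ± 0.14), and in the other direction Bdnf (−0.97 ± 0.17), which encodes the neurotrophin BDNF. Of 27 upstream kinases and factors 4 were higher and 1 lower, in all 18.5%, near the 17.7% of all genes called, with Camk4 (1.21 ± 0.17) and Mef2c (1.596 ± 0.25) higher and Crtc3 (−0.70 ± 0.15) lower in cortex. Of 11 heat shock and dissociation genes, a sign of handling, 0 passed in edgeR and 0 in DESeq2, with 3 at an unadjusted p under 0.05, while 9 of 10 mitochondrially encoded transcripts were lower in cortex. In excitatory nuclei the counts were 10 higher and 2 lower of 26 rapid genes, 7 and 3 of 18 delayed genes, 3 and 4 of 26 upstream genes, 0 and 0 of 9 heat shock genes (1 at an unadjusted p under 0.05, 0 in DESeq2), and 0 and 6 of 8 mitochondrial transcripts. Of all genes tested in these nuclei, 7.53% were called higher in cortex, 8.13% lower and 15.7% in either direction. For upstream genes the shares were 11.5% higher and 15.4% lower.

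The same lists were read in the comparisons of subtypes. Between layers, 5 of 17 rapid response genes (29.4%) were lower in layer 2-4-like than in layer 6-like nuclei and 0 were higher, against 6.18% and 6.04% of all genes, led by Trib1 (log2 difference −1.50 ± 0.28), Plk3 (−1.20 ± 0.23), Klf10 (−0.94 ± 0.22) and Nr4a2 (−1.44 ± 0.35). Delayed genes went both ways, 2 higher and 5 lower of 13, as did upstream genes, 5 higher and 1 lower of 23, and of 9 heat shock and dissociation genes Hsp90ab1 was lower (−0.30, edgeR adjusted p = 0.00241). Between dentate and CA nuclei 4 of 9 were lower in dentate, among them Dusp6 (−2.91 ± 0.44), Nr4a3 (−2.64 ± 0.41) and Plk2 (−1.53 ± 0.13), and 2 were higher, of which Jun stood at 3.57 ± 0.26. Jun, a partner of Fos and Fosb in AP-1, thus moved opposite to Arc and Nr4a1 between these classes, with an edgeR adjusted p of 5.58e-20. The mitochondrial transcripts mt-Rnr2 (0.84 ± 0.10) and mt-Rnr1 (0.89 ± 0.21) were also higher in dentate nuclei. Of 12 delayed genes 5 were higher and 3 lower there, of 24 upstream genes 6 and 2, against 13.4% and 14.6% of all genes, and of 8 heat shock and dissociation genes Hsph1 was lower (−0.43, edgeR adjusted p = 0.0178). In cortex, 5 of 26 rapid response genes (19.2%) were higher in excitatory than in inhibitory nuclei and 0 were lower, against 9.43% and 9.18% of all genes and 18.6% in either direction, led by Klf10 (1.44 ± 0.27), Plk2 (0.48 ± 0.10) and Ier5 (1.27 ± 0.30). Of 18 delayed genes 7 were higher and 2 lower, and of 26 upstream genes 9 and 2.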

How the data were processed

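UMI counts were deposited unnormalized, as the name and the whole values of the table show. The authors aligned with STAR 2.4.0a24 and used Seurat and mm10, per the submitters' processing notes. Libraries follow DroNc-seq on frozen nuclei, per the labels' protocols. How UMIs were collapsed, the strand and the use of intronic reads are not given in the sources used here. Of 13313 columns, 1689 carry a name that matches no sample label and were not used. Pairs of libraries shared at most 3 barcodes. Depth ranged from 1443244 to 2600788 UMIs per library.

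Nuclei were clustered in scanpy 1.11.5 with leidenalg 0.10.2 (2000 variable genes without the activity genes, 40 components, 20 neighbours, resolution 2.0) and named from marker lists as "like" a class, with 4 of 25 clusters unnamed (722 cortex and 1511 hippocampus nuclei). Names are rebuilt and may differ from the study's. The 595 nuclei called doublets (5.12%) were kept, and removed in an alternative. The 10 genes and all lists were chosen with earlier results of these data known.

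Counts were summed per unit and class (at least 20 nuclei) and tested in R 4.3.3 by the quasi-likelihood test of edgeR 4.0.16, with TMM, filterByExpr, Benjamini-Hochberg adjustment and a threshold of 0.05. Comparisons between classes of the same units have the unit as a block; those between regions have none. Shares were compared by 2-sided exact permutation over 70 assignments. Intervals (95%, exact binomial) reflect counting error alone. On simulated counts, changes of 1 and 2 on the log2 scale were recovered in 87% and 98% of genes over all nuclei (12855 genes). The shares were 62% and 99% in excitatory (10963) and 38% and 99% in inhibitory nuclei (4829). False calls made up 7.5%, 8.52% and 4.2% of the calls in these, above the threshold of 0.05 over all nuclei and in excitatory nuclei. For the interaction (9869 genes) 23% and 67% were recovered, with 2.17% false calls. Alternatives were DESeq2 1.42.0, other size factors, no filter, a replicate block, leaving out each unit, other cluster resolutions, doublet removal and other thinning. All 10 genes are named in each comparison, other lists by up to 4 called genes of smallest p, and likeness by up to 10 genes per region, with Gm and Rik genes counted only.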

Additional observations from a re-analysis of the deposited data

Results flagged for a closer look

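In groups of 4 units, 80 sets of values were looked at for a unit far from the other 3, and 11 (13.75%) held one, where chance gives about 1 in 20. Most concerned unit 0. Over all cortex nuclei, Egr4 in unit 0 was at 24.5 CPM against 63.4 to 67.3 in the others, and in excitatory neuron-like nuclei at 27.4 against 69.2 to 75.0. Its thinned share in cortex unit 0 was 1.31% of all nuclei against 2.71% to 2.90%, and 1.44% of excitatory nuclei against 3.11% to 3.33%. Junb was detected after thinning in 2.92% of all nuclei of cortex unit 0 against 6.22% to 6.89%, and Egr2 in 0.359% of excitatory nuclei against 0.538% to 0.566%. In hippocampus unit 0 the direction was the opposite: Egr1 was at 74.6 CPM against 43.7 to 47.7, Egr2 at 1.56 against 0.557 to 0.693, and the thinned share of Nr4a1 was 4.10% against 2.19% to 2.32%. Hippocampus unit 3 stood apart for Egr4, at 22.8 CPM against 11.7 to 13.2, and for the thinned share of Egr2 in excitatory nuclei, at 0.169% against 0 in the others, which is 1 nucleus. Over all nuclei, unit 0 also had the highest median depth in cortex (2505 UMIs) and the lowest in hippocampus (792.5 UMIs). Its makeup in hippocampus differed as well. Of its 904 excitatory neuron-like nuclei there, 290 were dentate granule-like and 122 CA-like. In hippocampus units 1 to 3 these were 272 and 159 of 513, 287 and 151 of 527, and 336 and 176 of 599. Whether depth, makeup or another property of unit 0 plays a part was not tested.

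The regional difference of Junb was smaller in excitatory than in inhibitory neuron-like nuclei by an interaction term of −2.12 (SE 0.63, edgeR adjusted p = 0.0354). It rests on 4 Junb UMIs in the inhibitory nuclei of the hippocampus. Inhibitory Junb lay below its glial level in cortex units 1 to 3 and hippocampus units 0, 2 and 3.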

How the results depend on the processing

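The regional calls over all nuclei (9 genes) held for each gene under every alternative run for it. Those in excitatory neuron-like nuclei (8 genes) did so except for Fosb, and the dentate calls of Arc and Nr4a1 held in all 12. Leaving out 1 unit in turn left 9 to 9 and 7 to 9 of the 10 genes called in those 2 regional comparisons, and a replicate block left 9 and 8. Whether units of the same number share a mouse is not given by the labels. The correlation of same-numbered deviations was 0.432, 0.0988, 0.0170 and 0.0311 for numbers 0 to 3. Only number 0 correlated best with its own. Such correlations cannot decide the pairing, since units of 1 mouse need not deviate together.

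Gene counts moved as follows. With numbers 1 to 3 only, 4128 genes (2278 in the reported fit) passed over all nuclei, 3385 (1717) in excitatory nuclei, 122 (15) in inhibitory nuclei and 1117 (1869) between neuron classes of the cortex. Inhibitory nuclei gave 4 genes under DESeq2, 48 with no filter, 52 with a replicate block, 237 at resolution 1.0, 1 with doublets removed and 2 to 79 leaving out a unit. Members called there were 0 under DESeq2, 4 at resolution 1.0, 0 with doublets removed and 0 to 3 leaving out a unit, and 384 genes had an unadjusted p under 0.05. Between cortical neuron classes, DESeq2 gave 871 genes and no replicate block 873, with 1 of the 10 genes called without the block, 5 with doublets removed and 1 to 3 leaving out a unit (1117 to 1613 genes). Between dentate and CA nuclei DESeq2 gave 863 genes (1870), and no filter gave 4 of the 10 genes. Between layers DESeq2 gave 340 and no replicate block 413 genes (918), and each of DESeq2, no block and resolution 4.0 left 3 of the 10 genes, with 3 to 6 leaving out a unit. For the interaction DESeq2 gave 120 and resolution 1.0 gave 649 genes (270), with 0 of the 10 genes under either and under numbers 1 to 3, and leaving out a unit gave 148 to 421 genes and 0 to 1 of the 10. Shares without thinning passed for 9 and 8 genes, and for 0 with numbers 1 to 3 or leaving out a unit (0 to 0), where the exact permutation test cannot reach the threshold. Co-detection ratios after thinning were 2.61 in cortex and 4.29 in hippocampus, and nuclei with at least 4 genes made up 5.27% and 1.47%.

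Values that changed sign had not passed. Between cortical neuron classes Fos was at −0.034 and −0.029 without cortex units 1 and 2, in a range up to 0.25 leaving out a unit. In the interaction Egr4 was at −1.03 without hippocampus unit 0, −0.052 without cortex unit 1, −0.95 with numbers 1 to 3 and −0.63 at resolution 1.0. Fosb was at −4.95, −4.80 and −0.67 without hippocampus unit 0, with numbers 1 to 3 and at resolution 1.0, Fos at −0.13 without hippocampus unit 0 and Egr1 at 0.070 at resolution 1.0. Leaving out a unit, these reached up to 0.56 for Egr4, 0.51 for Fos and 0.66 for Fosb. The cause was not tested. Layers at resolution 1.0 were not run, since no layer 6-like cluster formed. Few UMIs limit Egr2, Egr3 and Fosb throughout, and all of the genes in inhibitory nuclei of the hippocampus.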
